A study of Mus musculus with 12 samples.

Results

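The genes for the receptors of serotonin, dopamine, noradrenaline and adrenaline, histamine and acetylcholine were followed in RNA of the mouse hypothalamus. They were taken by name: every protein-coding GENCODE gene with an Htr1 to Htr7, Drd, Adra, Adrb, Hrh, Chrm or Chrn symbol, which gave 53 of the 52638 entries of the count table. The set holds 14 serotonin, 5 dopamine, 9 adrenergic, 4 histamine, 5 muscarinic and 16 nicotinic genes, and the naming rule uses no measured value, although the set was proposed with earlier results of these data known.

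All mice were adults that carried 2 copies of Cre recombinase driven by LepRb, the long leptin receptor, and 2 copies of a green fluorescent protein fused to ribosomal protein L10a at the R26 locus (LepRb-Cre/Cre, together with R26-GFP:L10a/GFP:L10a). The controls (Ctrl) had these alleles alone, and the mice labelled Stat3KO also had both Stat3 alleles floxed (Stat3-flox/flox). Hypothalami of 5 to 8 mice were pooled, and each pool gave RNA pulled down with the tagged ribosomes of cells expressing LepRb (bead-bound) and the RNA left after the pull-down (supernatant), so that 6 pools gave 12 libraries in 4 groups of 3. Values carry the spread between pools, and in such bulk RNA a smaller number of cells and less RNA per cell cannot be told apart.

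These receptors carry signals that the brainstem, the tuberomammillary nucleus and local neurons send to hypothalamic feeding circuits. Most are G protein-coupled receptors: those coupled to Gs raise cyclic AMP, those coupled to Gi lower it, and those coupled to Gq release calcium. The nicotinic receptors and the serotonin 3 receptors are instead ion channels built from 5 subunits of the same or different genes. Serotonin is best known here for curbing food intake through the 2C receptor on Pomc neurons, and Drd2 for its role as the inhibitory autoreceptor of dopamine neurons.

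Total counts ranged from 20743217 to 41829907 per library, of which the 53 genes took 0.0637 to 0.0843%. The pull-down was visible in each genotype: over both, bead-bound RNA was higher for Gfp_L10a by 3.50, for Cre by 2.46 and for Lepr by 2.34 on the log2 scale. All 8 arcuate LepRb neuron markers rose, whereas all 10 astrocyte, all 10 oligodendrocyte and 9 of 10 microglia markers fell on the beads. Endothelial markers also rose, 9 of 10, and their summed level varied between bead-bound libraries from 18.8 to 173 CPM (counts scaled to library size, with TMM factors) against 21.3 to 28.4 CPM in supernatant. Stat3, the targeted gene, stood at 116 to 163 CPM for Stat3KO against 144 to 181 CPM in bead-bound Ctrl RNA, ranges that overlap (log2 fold change −0.24, SE 0.160, adjusted p = 0.999, edgeR). Counts per whole gene cannot tell if the floxed exons are gone. Replicate 1 stood apart in every group: its counts differed from those of replicates 2 and 3 by a chi-square statistic per gene of 25.1 to 75.5, against 5.91 to 16 between replicates 2 and 3.

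Levels of different genes were compared per kilobase (kb) of annotated exon. In bead-bound Ctrl RNA the highest were the histamine receptor Hrh3, a Gi-coupled autoreceptor and brake on transmitter release, at 24.9 ± 7.77 CPM per kb (SD, n = 3) and Drd2 at 24.9 ± 1.89 CPM per kb. Next came the nicotinic subunits Chrna6 at 16.1 ± 6.42, Chrna4 at 15.8 ± 1.99 and Chrnb2 at 13.2 ± 1.56 CPM per kb, then the serotonin receptors Htr2c at 12.4 ± 2.72 and Htr7 at 11.8 ± 0.728 CPM per kb. Hrh3 and Drd2 did not differ beyond their SD, nor did Chrna6 and Chrna4, or Chrnb2, Htr2c and Htr7. The place of Htr2c depended on the length used: per kb of its longest transcript it stood at 23.7 CPM, next below Drd2. In Ctrl supernatant Hrh3 again had the highest level, 23.9 ± 2.92 CPM per kb, but Chrna6 stood at only 2.20 ± 0.375 CPM per kb. At the other end, 8 genes had too few counts to be tested over both genotypes: Htr2b, Htr3b, Hrh4, Chrna9, Chrna10 and the muscle-type subunits Chrnd, Chrne and Chrng, with 1 to 75 counts over all 12 libraries.

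**Figure D1:**
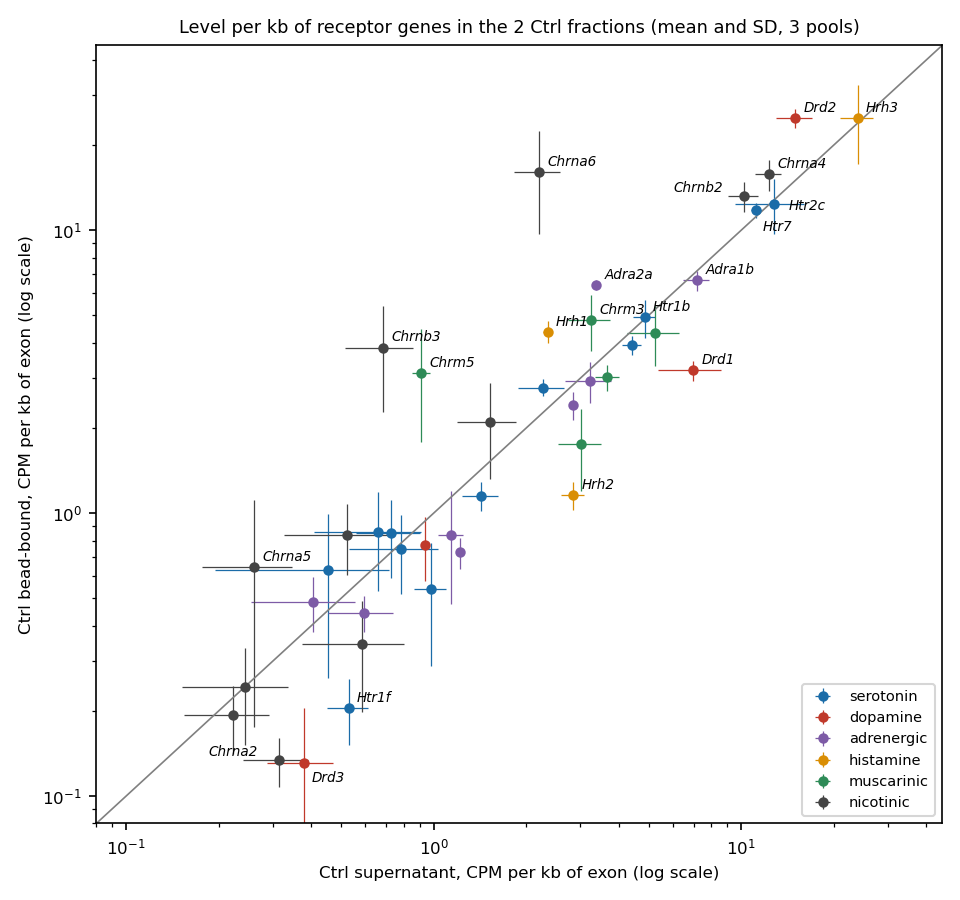
Mean level of receptor genes per kb of exon in Ctrl supernatant (horizontal, log scale) and bead-bound Ctrl RNA (vertical, log scale), with bars of 1 SD over 3 pools and colours for the families. The grey line marks equal levels; 43 genes are drawn, and the 9 under 0.1 CPM per kb in either fraction are not. Hrh3 lies near the line at 24.9 against 23.9 CPM per kb, while Chrna6, Chrnb3 and Chrm5 lie well above it and Drd1 and Hrh2 below it.

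The first question was which receptor genes stood higher on the tagged ribosomes of LepRb cells than in the rest of the tissue. Over both genotypes 45 of the 53 genes were tested: 11 were higher in bead-bound RNA, 16 were lower and 18 did not pass an adjusted p under 0.05 (edgeR). Among all 19122 genes tested, 26.2% were higher and 28.7% lower. Of the receptor genes tested, 24.4% rose, near the background, and 35.6% fell. Their median log2 fold change was −0.115, and that of all genes tested was −0.0284. Every bead-bound library lay above every supernatant library for 6 receptor genes and below for 4, against 16.6% and 14.8% of all genes. The fit did not pair the fractions of a pool. With the pool as a block 13 receptor genes were higher and 18 lower, against 31.5% and 34.0% of all genes. With library totals in place of TMM the median of all genes moved to −0.158, and the split of the receptor genes to 8 higher and 18 lower, against 19.0% and 35.2% of all genes; all changes below are with TMM. The families differed in their counts: 6 of 11 nicotinic genes rose and 2 fell, while of 12 serotonin genes 0 rose and 4 fell, and of 9 adrenergic genes 1 rose and 5 fell. Of 5 muscarinic genes 2 rose and 2 fell, of 5 dopamine genes 1 rose and 2 fell, and of 3 histamine genes 1 rose and 1 fell. No test compared the families. Calls of Chrna4, Chrnb2, Chrna5, Drd1, Htr1d, Htr1a, Htr3a, Adra1a and Adra1b were lost under at least 1 other setting. All 11 genes that rose were higher on the beads in 6 of 6 pools, and 14 of the 16 that fell were lower in 6 of 6. These pools also gave the calls, so their agreement is no separate support. The share among all called genes was not counted.

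**Figure D2:**
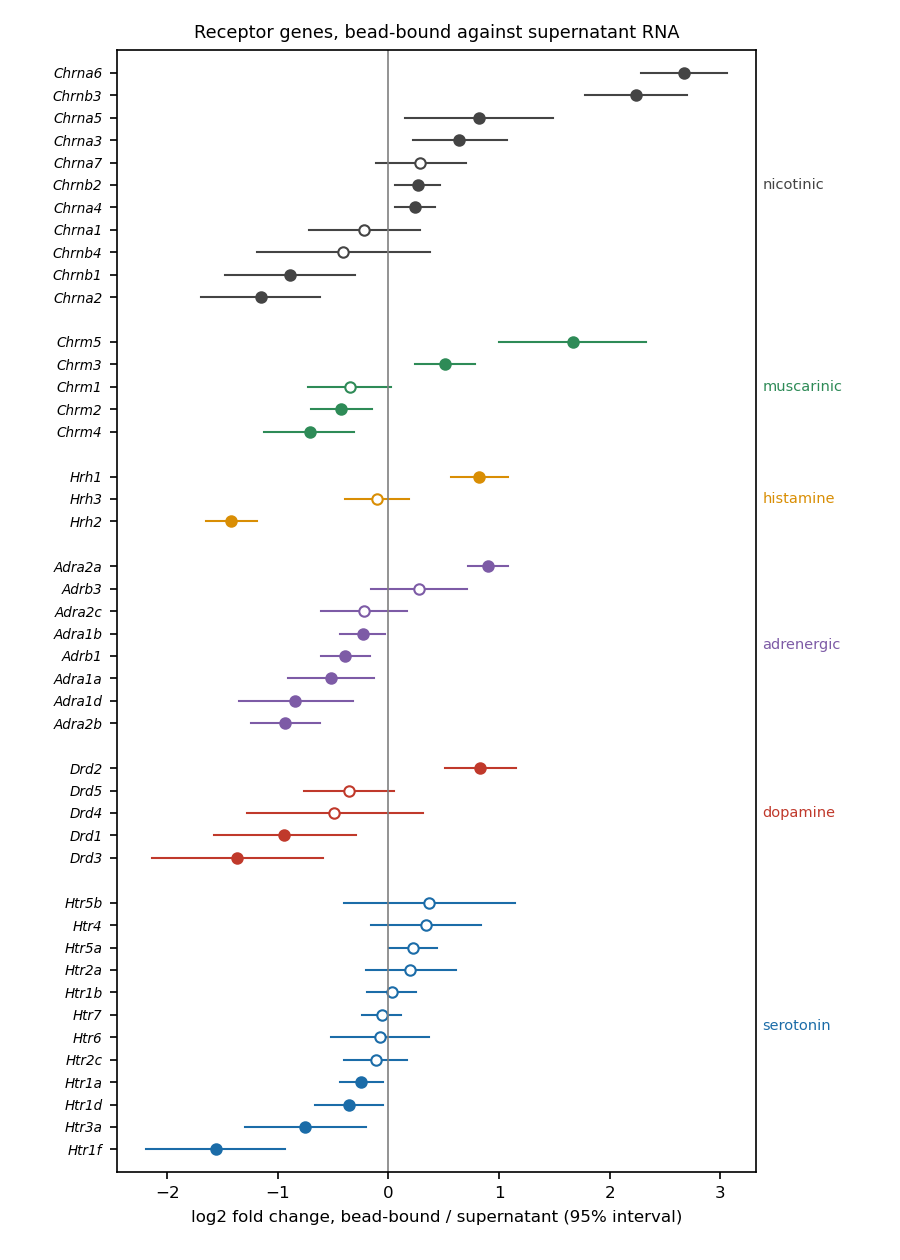
Log2 fold change of bead-bound over supernatant RNA, both genotypes, for 44 of the 45 receptor genes tested, sorted within families. Lines are 95% intervals from edgeR, filled points passed an adjusted p under 0.05, and open points did not. Chrna6 and Chrnb3 lie farthest to the right at 2.67 and 2.24, and Htr1f and Hrh2 farthest to the left at −1.56 and −1.42.

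Among the nicotinic subunits, Chrna6 and Chrnb3 had the largest rises of all the receptor genes. They encode the alpha6 and beta3 subunits, which are known from receptors on midbrain dopamine neurons and other catecholamine cells. Chrna6 (ENSMUSG00000031491, chr8:27403212-27413944, GRCm38) stood at 25.4, 54.7 and 60.0 CPM in bead-bound Ctrl RNA and 5.28, 7.46 and 6.43 CPM in the supernatants of the same pools 1, 2 and 3. The Stat3KO pools gave 33.8, 32.6 and 35.7 CPM on the beads and 6.48, 6.29 and 4.63 CPM in supernatant. Every bead-bound library thus lay above every supernatant library, with Ctrl pool 1 the lowest of the bead-bound ones. The fold change was 6.36 (log2 2.67, SE 0.183, adjusted p = 1.12e-07, edgeR). Chrnb3 (ENSMUSG00000031492, chr8:27368711-27399730) stood at 13, 28.7 and 31.7 CPM in Ctrl and 15.9, 19.4 and 17.7 CPM in bead-bound Stat3KO RNA. Its supernatant values were 3.51, 5.58 and 3.97 CPM in Ctrl and 3.47, 5.78 and 3.24 CPM in Stat3KO. Again the fractions did not overlap and Ctrl pool 1 was the lowest bead-bound library, and the log2 fold change was 2.24 (SE 0.215, adjusted p = 1.93e-06). In that library Lepr was also the lowest of the bead-bound ones, at 5.86 CPM against 9.93 to 13.8 CPM, but the tags were not: Gfp_L10a was lowest in Stat3KO pool 1, at 83.6 CPM against 97.8 CPM in Ctrl pool 1, and Cre too, at 1.53 against 2.05 CPM. The arcuate LepRb markers summed to 1840, 1848 and 1844 CPM in Ctrl pools 1, 2 and 3. The pair lies side by side, the gene ends 3481 bases apart and facing each other. Within single libraries the level of Chrna6 per kb was 0.646 to 1.23 times that of Chrna4 on the beads and 0.123 to 0.197 times in supernatant, a ratio that no scaling between libraries can move.

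A second nicotinic cluster behaved less uniformly. Chrna5, an accessory alpha5 subunit, and Chrna3, the alpha3 subunit of ganglion-type receptors, rose, whereas their neighbour Chrnb4, the usual partner of alpha3, had a log2 fold change of −0.41 (SE 0.368, adjusted p = 0.363). Chrna5 and Chrna3 end 2331 bases apart, and Chrna3 and Chrnb4 are separated by 1591 bases. Their RefSeq promoter windows (build GRCm38.p6, 250 bases before to 50 after a listed start site, chr9:54980630-54980929 on the plus strand and chr9:55026513-55026812 on the minus strand) are shown because the neighbours rose together. The Chrna5 window is the first of 2 listed, and the Chrna3 window the only one. Capitals mark TTCNNNGAA, the core of STAT binding sites, in Chrna5, and GGGCGG (absent from the Chrna5 window shown, present in its other one) or its reverse complement, the GC box, in Chrna3.
Chrna5: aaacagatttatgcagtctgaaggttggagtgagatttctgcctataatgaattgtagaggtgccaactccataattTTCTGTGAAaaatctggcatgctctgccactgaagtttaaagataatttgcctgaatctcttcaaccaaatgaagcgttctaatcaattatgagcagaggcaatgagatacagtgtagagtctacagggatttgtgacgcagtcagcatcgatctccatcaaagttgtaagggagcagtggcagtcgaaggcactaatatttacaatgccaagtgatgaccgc
Chrna3: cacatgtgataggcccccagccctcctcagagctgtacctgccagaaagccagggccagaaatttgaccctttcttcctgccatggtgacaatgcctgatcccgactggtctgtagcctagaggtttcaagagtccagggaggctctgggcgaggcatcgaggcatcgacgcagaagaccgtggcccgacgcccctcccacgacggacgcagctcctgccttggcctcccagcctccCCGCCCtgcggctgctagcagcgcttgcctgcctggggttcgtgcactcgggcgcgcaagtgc
The Chrna5 window was 41.3% G or C with 5 CpG pairs and the Chrna3 window 64.3% with 18. TTCNNNGAA reads the same on both strands; it was present in 4 of the 49 windows listed for 40 of the receptor genes, those of Chrna5, Adra2b and Drd3, and in 8.3% of all 32851 windows. GGGCGG, sought on both strands, was in 28 of the 49 windows and in 35.7% of all, and TATAAA, also sought on both strands, in 2 of the 49 and in 13.6% of all.

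Chrna5 (ENSMUSG00000035594) stood at 0.878, 3.67 and 1.49 CPM in Ctrl and 0.862, 1.21 and 1.02 CPM in bead-bound Stat3KO RNA. In supernatant it stood at 0.736, 0.601 and 1.11 CPM in Ctrl and 0.678, 0.960 and 0.656 CPM in Stat3KO. The fractions overlapped and Ctrl pool 2 held by far the highest value. The log2 fold change of 0.82 (SE 0.314, adjusted p = 0.0380) fell to 0.46 without that bead-bound library (adjusted p = 0.154), and the call was also lost with library totals (0.69, adjusted p = 0.0753), with limma-voom (adjusted p = 0.0719) and without any of Ctrl supernatant 1 or 2, Stat3KO supernatant 1 or 3 or Stat3KO bead-bound 2 or 3 (adjusted p = 0.0572 to 0.0886). Chrna3 (ENSMUSG00000032303) stood at 3.01, 5.30 and 4.96 CPM in Ctrl and 4.44, 3.24 and 3.60 CPM in bead-bound Stat3KO RNA. Its supernatant values were 1.82, 3.85 and 2.55 CPM in Ctrl and 1.91, 2.70 and 2.43 CPM in Stat3KO. The ranges overlapped, yet within each of the 6 pools the bead-bound value was the higher one (log2 fold change 0.64, SE 0.199, adjusted p = 0.0136).

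Chrna4 and Chrnb2 encode the alpha4 and beta2 subunits of the most widespread nicotinic receptor of the brain, and their rises were small. Chrna4 (chr2:181018380-181043546) stood at 68.0, 86.3 and 84.1 CPM in Ctrl and 72.4, 72.9 and 67.2 CPM in bead-bound Stat3KO RNA. Supernatant held 54.9, 65.5 and 65.5 CPM in Ctrl and 57.3, 63.1 and 65.2 CPM in Stat3KO. All bead-bound values lay above all supernatant values, though the lowest of the first (67.2 CPM) and the highest of the second (65.5 CPM) nearly met. The log2 fold change was 0.24 (SE 0.0850, adjusted p = 0.0265) and 0.11 with library totals (adjusted p = 0.253). The call was also lost without Ctrl bead-bound 2 or 3, Ctrl supernatant 1 or Stat3KO supernatant 1 (adjusted p = 0.0563 to 0.0701). Chrnb2 (chr3:89746195-89764632) stood at 95.2, 116 and 119 CPM in Ctrl and 108, 93.2 and 82.5 CPM in bead-bound Stat3KO RNA. In supernatant the values were 74.7, 88.0 and 93.6 CPM in Ctrl and 86.8, 81.8 and 71.8 CPM in Stat3KO, which overlapped those of the beads. Its log2 fold change was 0.27 (SE 0.0949, adjusted p = 0.0276) and 0.14 with library totals (adjusted p = 0.206), and the call was lost without Ctrl bead-bound 2 or 3, Ctrl supernatant 1, Stat3KO bead-bound 1 or Stat3KO supernatant 3 (adjusted p = 0.0556 to 0.0703). Exons of Chrnb2 overlap those of Adar on the opposite strand over 16.3% of their length, and without a stated strand the reads of both cannot be told apart.

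The nicotinic subunits that fell were low ones. Chrna2, the alpha2 subunit of a few interneuron classes, stood at 0.586, 0.393 and 0.542 CPM in Ctrl and 0.894, 0.421 and 0.585 CPM in bead-bound Stat3KO RNA. Supernatant held 1.47, 0.901 and 1.21 CPM in Ctrl and 1.46, 1.37 and 0.965 CPM in Stat3KO. Each supernatant library was above each bead-bound one (log2 fold change −1.15, SE 0.250, adjusted p = 0.00139). Chrnb1, known as the beta subunit of the muscle receptor, stood at 0.460, 1.18 and 0.976 CPM in Ctrl and 0.639, 0.842 and 1.35 CPM in bead-bound Stat3KO RNA. Against these, the supernatants of the same pools held 1.04, 1.33 and 2.08 CPM in Ctrl and 1.58, 1.49 and 2.43 CPM in Stat3KO. The ranges overlapped, but supernatant was the higher in each pool (log2 fold change −0.89, SE 0.275, adjusted p = 0.0136). Chrna7, the alpha7 subunit of homomeric receptors, had a log2 fold change of 0.29 (edgeR, adjusted p = 0.202) and Chrna1 of −0.22 (adjusted p = 0.452). Chrna7 passed without Ctrl bead-bound 1 (adjusted p = 0.0305), with the pool as a block (0.0454) and with replicates 2 and 3 alone (0.0164).

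**Figure D3:**
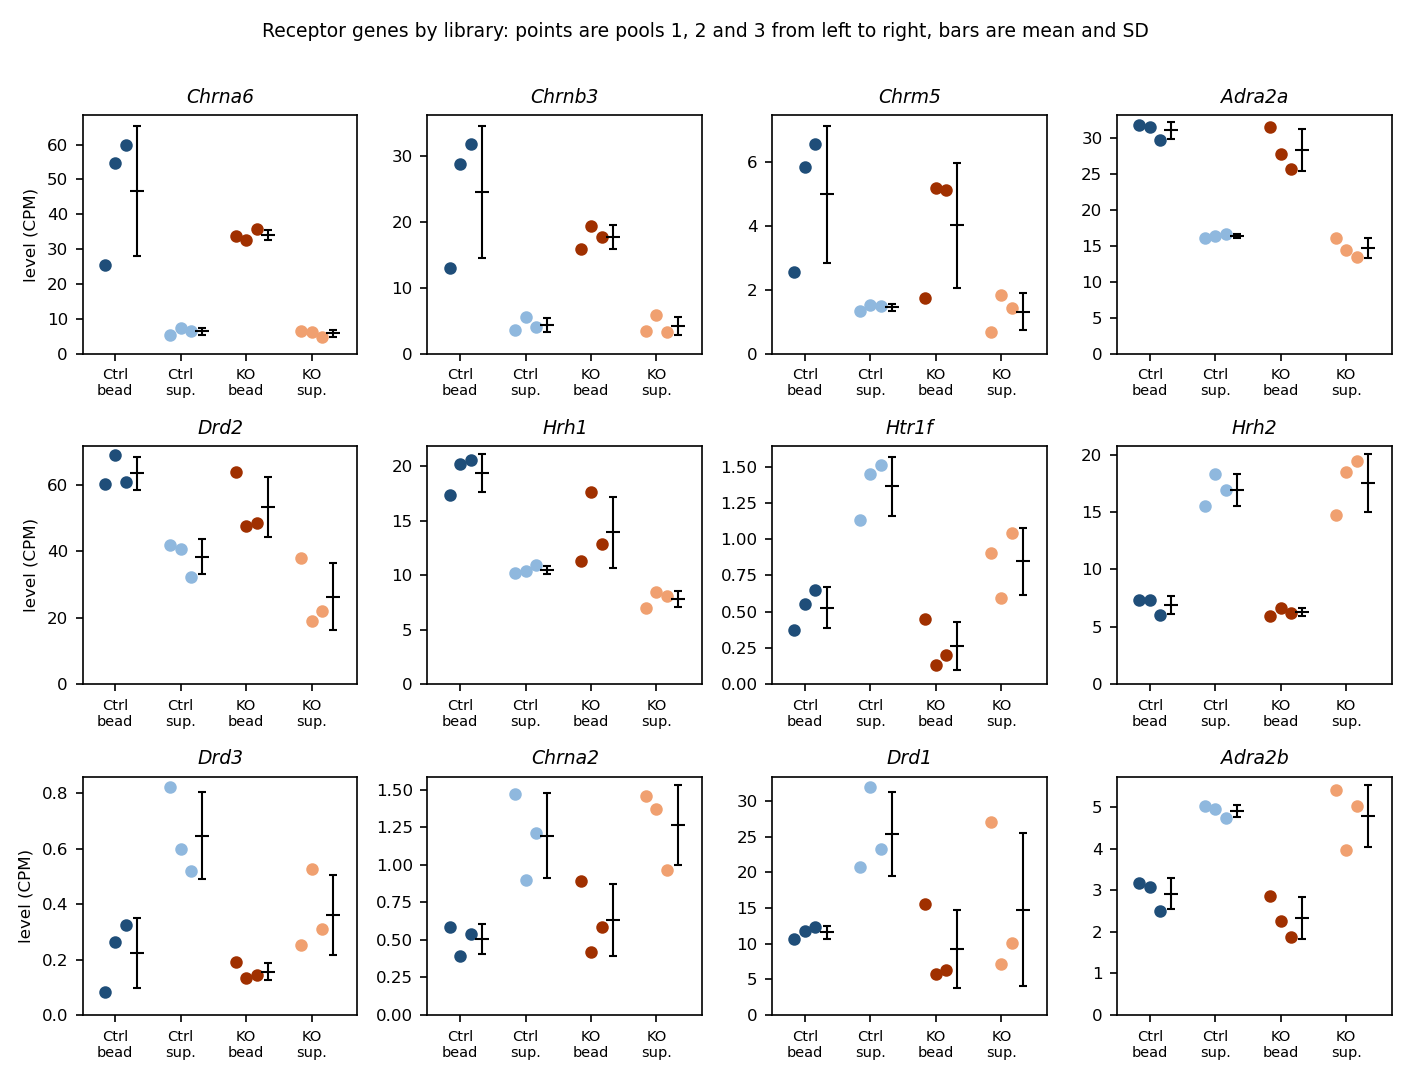
Level in CPM of 12 receptor genes in every library, by group (Ctrl and Stat3KO, here KO, bead-bound and supernatant); points are pools 1, 2 and 3 from left to right, and the bars beside them the mean and SD over 3 pools. Shown are the 6 largest rises and the 6 largest falls on the beads; each vertical axis starts at 0. Chrna6 spans 25.4 to 60.0 CPM on the beads and 4.63 to 7.46 CPM in supernatant, while Hrh2 spans 5.97 to 7.36 and 14.7 to 19.4 CPM.

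The dopamine receptors parted. Drd2, the Gi-coupled D2 receptor, made up 85.7% of the family's summed level per kb in bead-bound Ctrl RNA and 64.2% in supernatant, and Drd1, the Gs-coupled D1 receptor, 11% and 29.8%. Drd2 (ENSMUSG00000032259, chr9:49340627-49408177) stood at 60.2, 68.9 and 60.9 CPM in Ctrl and 63.7, 47.5 and 48.5 CPM in bead-bound Stat3KO RNA. Its supernatant values were 41.9, 40.7 and 32.3 CPM in Ctrl and 37.9, 19.0 and 22.1 CPM in Stat3KO. No supernatant value reached a bead-bound one, and Stat3KO pools 2 and 3 were the lowest in each fraction. The log2 fold change was 0.83 (SE 0.150, adjusted p = 0.000331). Drd1 (ENSMUSG00000021478, chr13:54051183-54055705) stood at 10.6, 11.8 and 12.4 CPM in Ctrl and 15.6, 5.79 and 6.35 CPM in bead-bound Stat3KO RNA, against 20.8, 32.0 and 23.3 CPM and 27.1, 7.16 and 10.1 CPM in supernatant. Stat3KO pools 2 and 3 were low in both fractions, and all 6 pools were lower on the beads. Drd1 had a log2 fold change of −0.94 (SE 0.302, adjusted p = 0.0166), and −0.55 without Stat3KO supernatant 1 (adjusted p = 0.0634).

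The summed level of 8 striatal markers, which do not include the receptor genes, ordered the Stat3KO pools as Drd1 did in each fraction. The Ctrl pools were not in the order of Drd1 in either fraction. In supernatant the sum was 622, 787 and 570 CPM in Ctrl and 682, 255 and 375 CPM in Stat3KO, and on the beads 423, 376 and 296 CPM and 455, 222 and 266 CPM. Of these markers 0 rose and 3 fell on the beads, and none was at 0 in every bead-bound library; their part in the values of Drd1 and Drd2 was not tested. Within single libraries Drd2 per kb was 5.80 to 11.7 times Drd1 on the beads and 1.81 to 3.79 times in supernatant. Drd3, a low Gi-coupled receptor, stood at 0.0836, 0.262 and 0.325 CPM in Ctrl and 0.192, 0.132 and 0.146 CPM in bead-bound Stat3KO RNA. Supernatant held 0.823, 0.601 and 0.520 CPM in Ctrl and 0.251, 0.526 and 0.309 CPM in Stat3KO. The fractions overlapped through Ctrl pools 2 and 3 on the beads and Stat3KO pools 1 and 3 in supernatant (log2 fold change −1.37, SE 0.361, adjusted p = 0.00543). Drd4 and the Gs-coupled Drd5 did not pass, at −0.49 and −0.36 (edgeR, adjusted p = 0.279 and 0.127). Drd5 passed without Stat3KO bead-bound 1 (−0.52, adjusted p = 0.0183), with library totals (adjusted p = 0.0365) and with the pool as a block (adjusted p = 0.0446). Of the exon length of Drd5, 48.6% overlaps an antisense gene.

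Of the histamine receptors, Hrh1 rose and Hrh2 fell. Hrh1 is the Gq-coupled H1 receptor, the target of sedating and weight-raising antihistamines, and Hrh2 the Gs-coupled H2 receptor. A promoter window is shown for each (RefSeq, GRCm38.p6, both plus strand, chr6:114397686-114397985 and chr13:54191883-54192182, the first listed of 4 and 2), because these receptors of 1 ligand went opposite ways; capitals mark GGGCGG.
Hrh1: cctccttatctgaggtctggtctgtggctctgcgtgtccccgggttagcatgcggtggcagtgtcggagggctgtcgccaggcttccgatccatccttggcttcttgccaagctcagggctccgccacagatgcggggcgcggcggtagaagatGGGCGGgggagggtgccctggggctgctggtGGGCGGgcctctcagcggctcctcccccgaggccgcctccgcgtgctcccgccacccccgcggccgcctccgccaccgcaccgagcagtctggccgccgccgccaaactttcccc
Hrh2: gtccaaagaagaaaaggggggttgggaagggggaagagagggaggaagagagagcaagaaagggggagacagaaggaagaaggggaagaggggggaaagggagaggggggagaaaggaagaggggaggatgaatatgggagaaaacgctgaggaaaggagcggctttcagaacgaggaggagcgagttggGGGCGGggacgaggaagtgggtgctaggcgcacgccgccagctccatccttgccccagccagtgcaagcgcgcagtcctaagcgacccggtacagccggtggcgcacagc
The windows hold 71.7% and 61.3% G or C, and 28 and 15 CpG pairs, and GGGCGG occurs in both.

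Hrh1 (ENSMUSG00000053004) stood at 17.4, 20.2 and 20.6 CPM in Ctrl and 11.3, 17.6 and 12.9 CPM in bead-bound Stat3KO RNA. The supernatants held 10.2, 10.4 and 10.9 CPM in Ctrl and 7.04, 8.44 and 8.07 CPM in Stat3KO. The fractions did not overlap, and the Stat3KO libraries lay lower than the Ctrl ones in supernatant. Its log2 fold change was 0.82 (SE 0.118, adjusted p = 5.26e-05). Hrh2 (ENSMUSG00000034987) stood at 7.36, 7.33 and 5.99 CPM in Ctrl and 5.97, 6.63 and 6.23 CPM in bead-bound Stat3KO RNA, with 15.5, 18.3 and 16.9 CPM and 14.7, 18.5 and 19.4 CPM in supernatant. Each supernatant library lay above each bead-bound one, with little spread in either fraction (fold change 2.68, log2 −1.42, SE 0.107, adjusted p = 2.49e-07). Hrh1 per kb was 2.52 to 4.59 times Hrh2 in single bead-bound libraries and 0.555 to 0.878 times in supernatant. Hrh3, with 81.8% of the family's level per kb in bead-bound Ctrl RNA and 82.1% in supernatant, did not pass (log2 fold change −0.10, 95% interval −0.39 to 0.19, adjusted p = 0.552), and Hrh4 had 1 count in all.

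The muscarinic receptors split 2 against 2: the Gq-coupled Chrm5 and Chrm3 rose, the Gi-coupled Chrm4 and Chrm2 fell, and the Gq-coupled Chrm1 did not pass. Chrm5 (ENSMUSG00000074939, chr2:112479171-112480769), known from dopamine neurons and brain vessels, stood at 2.55, 5.86 and 6.59 CPM in Ctrl and 1.76, 5.19 and 5.12 CPM in bead-bound Stat3KO RNA. Its supernatant values were 1.34, 1.53 and 1.49 CPM in Ctrl and 0.678, 1.83 and 1.43 CPM in Stat3KO. Pool 1 was the lowest of each genotype in both fractions, and Stat3KO bead-bound 1 fell within the supernatant range. This gave a log2 fold change of 1.67 (SE 0.312, adjusted p = 0.000464). The summed level of the 10 endothelial markers was 63.9, 82.5 and 160 CPM in Ctrl and 18.8, 173 and 127 CPM in bead-bound Stat3KO RNA, also lowest in pool 1 of each genotype; none of these markers was at 0 in every bead-bound library, and their part in the level of Chrm5 was not tested.

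Chrm3 (ENSMUSG00000046159) stood at 22.3, 33.9 and 34.2 CPM in Ctrl and 31.5, 24.7 and 22.7 CPM in bead-bound Stat3KO RNA. In supernatant it stood at 16.8, 20.9 and 23.1 CPM in Ctrl and 19.7, 17.6 and 17.6 CPM in Stat3KO. Across pools the ranges overlapped a little, and within each pool the beads were higher (log2 fold change 0.51, SE 0.126, adjusted p = 0.00336). Chrm4 fell by 0.71 on the log2 scale (adjusted p = 0.00549), Chrm2 by 0.43 (adjusted p = 0.0109), and Chrm1 had a log2 fold change of −0.35 (95% interval −0.73 to 0.02, adjusted p = 0.0992, edgeR). Chrm1 passed without Stat3KO supernatant 2 (adjusted p = 0.0286), with library totals (0.0310) and with no filter on low counts (0.0292). It also passed with the pool as a block (0.0176) and with replicates 2 and 3 alone (0.0107).

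Among the adrenergic receptors only Adra2a, the Gi-coupled alpha2A receptor and target of clonidine, rose among the 9 tested. Adra2a (ENSMUSG00000033717, chr19:54044151-54048982) stood at 31.8, 31.5 and 29.7 CPM in Ctrl and 31.4, 27.7 and 25.6 CPM in bead-bound Stat3KO RNA. The supernatants held 16, 16.3 and 16.6 CPM in Ctrl and 16.1, 14.4 and 13.4 CPM in Stat3KO. The fractions lay far apart with little spread, and the log2 ratio in single pools ranged only from 0.84 to 0.98. The fitted log2 fold change was 0.90 (SE 0.0845, adjusted p = 1.59e-06), and 0.77 to 0.94 under the 19 other settings.

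Its relative Adra2b (ENSMUSG00000058620), the alpha2B receptor, went the other way. It stood at 3.18, 3.08 and 2.49 CPM in Ctrl and 2.87, 2.26 and 1.87 CPM in bead-bound Stat3KO RNA, and at 5.02, 4.96 and 4.73 CPM and 5.40, 3.96 and 5.02 CPM in supernatant. The fractions did not overlap (log2 fold change −0.93, SE 0.147, adjusted p = 0.000119). Adra1d, the Gq-coupled alpha1D receptor, stood at 2.38, 1.18 and 1.22 CPM in Ctrl and 0.671, 1.42 and 0.761 CPM in bead-bound Stat3KO RNA, against 1.95, 2.35 and 2.20 CPM and 1.76, 2.61 and 1.97 CPM in supernatant. Ctrl pool 1 alone was higher on the beads, and the other 5 pools were lower (log2 fold change −0.84, SE 0.241, adjusted p = 0.00909). Adra1a, Adrb1 and Adra1b fell by 0.52, 0.39 and 0.23 (adjusted p = 0.0249, 0.00517 and 0.0494). The call of Adra1a was lost without Ctrl bead-bound 1, Stat3KO bead-bound 1, or supernatant 2 or 3 of either genotype (adjusted p = 0.0507 to 0.0710), and that of Adra1b without number 2 or 3 of any group (adjusted p = 0.0982 to 0.157), with RLE size factors (0.0564) and with no filter on low counts (0.201). Adra2c and Adrb3 did not pass, at −0.22 and 0.28 (adjusted p = 0.318 and 0.257).

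None of the 12 serotonin receptor genes tested rose. The Gi-coupled Htr1f, the target of lasmiditan, fell most: it stood at 0.376, 0.556 and 0.651 CPM in Ctrl and 0.447, 0.132 and 0.205 CPM in bead-bound Stat3KO RNA, and at 1.13, 1.45 and 1.51 CPM and 0.905, 0.594 and 1.04 CPM in supernatant. The only overlap was between Ctrl bead-bound 3 and Stat3KO supernatant 2 (log2 fold change −1.56, SE 0.295, adjusted p = 0.000506). The channel subunit Htr3a fell by 0.75, Htr1d by 0.36 and Htr1a by 0.25 on the log2 scale (adjusted p = 0.0221, 0.0464 and 0.0339). The call of Htr3a was lost without Stat3KO bead-bound 2 or 3 (adjusted p = 0.0567 and 0.0555). That of Htr1d was lost without number 1 or 3 of the Ctrl beads, 2 or 3 of the Ctrl supernatants, 1 or 2 of the Stat3KO beads or 1 or 3 of the Stat3KO supernatants (adjusted p = 0.0511 to 0.132), with no filter on low counts (0.164) and with replicates 2 and 3 alone (0.0958). Htr1a lost its call without Ctrl bead-bound 2, Ctrl supernatant 2 or 3, Stat3KO bead-bound 2 or 3 or Stat3KO supernatant 1 or 2 (adjusted p = 0.0514 to 0.0940), and with no filter (0.191). The receptors with the highest levels per kb differed little between fractions: Htr2c had a log2 fold change of −0.11 (95% interval −0.40 to 0.17) and Htr7 of −0.06 (95% interval −0.24 to 0.11). Htr2c passed as lower on the beads with replicates 2 and 3 alone (−0.16, edgeR, adjusted p = 0.0273). Htr1b, which presynaptic terminals use as an autoreceptor, stood at 0.03 (95% interval −0.19 to 0.25), and Htr5a at 0.22 (edgeR, adjusted p = 0.0746). Htr5a passed without Ctrl supernatant 3 (adjusted p = 0.0423) and with the pool as a block (0.0209). Htr2c held 30.3% and Htr7 28.7% of the family's level per kb on the Ctrl beads.

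The same comparison was made within each genotype, with 6 libraries each. In Ctrl 7 of 44 receptor genes tested were higher on the beads and 7 lower, against 20.7% and 21.2% of all genes tested; in Stat3KO 8 of 43 were higher and 7 lower, against 14.7% and 17.3%. The 7 that rose in Ctrl (Chrna6, Chrnb3, Chrm5, Adra2a, Drd2, Hrh1 and Chrm3) were also called in Stat3KO, 100% of the first list and 87.5% of the second. Hrh2, Adra2b, Htr1f and Chrna2 fell in each genotype, 57.1% of either list. With the pool as a block, 11 were higher and 11 lower in Ctrl (29.4% and 29.0% of all genes), and 9 higher and 13 lower in Stat3KO (23.7% and 26.0%); with library totals Ctrl gave 6 higher and 10 lower (13.2% and 27.2%). Without Ctrl bead-bound 1, 12 were higher in Ctrl (22.5% of all genes), and without Ctrl bead-bound 2 or supernatant 3, 4 were lower (14.4% and 14.5%). In Stat3KO, 5, 5 and 3 were higher without supernatant 1, 2 or 3 (12.6%, 6.49% and 7.67%). There 12 were lower without bead-bound 1 (18.6%), but 3 or 4 without any of the other libraries (9.07% to 15.6%). The ratio of bead-bound to supernatant RNA differed between genotypes for 0 of 45 receptor genes in edgeR and in DESeq2, against 0.193% of all genes with a higher and 0.0105% with a lower ratio in Stat3KO in edgeR, and 1 receptor gene had an unadjusted p under 0.05, against 2.12% of all genes.

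The second question was whether receptor RNA differed between Stat3KO and Ctrl. STAT3 is the transcription factor that LepRb activates. In bead-bound RNA 0 of 43 receptor genes tested passed (edgeR), against 0.421% of all genes higher and 0.0288% lower; 1 was higher and 4 were lower at an unadjusted p under 0.05 (4.11% of all genes in either direction), and DESeq2 called 1 higher, against 0.622% of all genes, and 0 lower. Without a filter on low counts 1 was higher too, against 0.439% of all genes. The log2 fold changes were negative for 34 and positive for 9, where 48.3% of all genes were positive, with a median of −0.227 against −0.00846 for all genes. In supernatant 0 of 45 passed in edgeR and in DESeq2, against 0% higher and 0.0108% lower of all genes, with 0 higher and 6 lower at an unadjusted p under 0.05 (6.20% of all genes). There 32 were negative and 13 positive, where 49.3% of all genes were positive, with a median of −0.100 against −0.00287. Some marker lists of other cells also had medians below 0 in this comparison: −0.214 for astrocytes, −0.273 for oligodendrocytes, −0.321 for microglia and −0.336 for striatum on the beads, and −0.305, −0.510, −0.359 and −0.693 in supernatant, with 0 of their genes called. Oligodendrocyte precursors, mural cells and ependyma were also below 0 in both fractions. Medians above 0 were those of endothelium, thalamus and blood, at 0.117, 0.0394 and 0.180 on the beads and 0.0624, 0.0900 and 0.228 in supernatant. Habenular and pituitary medians were above 0 on the beads and below 0 in supernatant. Neuron markers had medians of −0.0769 and 0.0651, and the arcuate LepRb markers of −0.328 and 0.0226, with 2 higher and 2 lower on the beads. Their part in the receptor medians was not tested. Groups of the 2 genotypes did not overlap for 3 receptor genes on the beads and for 5 in supernatant, against 9.05% and 12.7% of all genes.

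**Figure D4:**
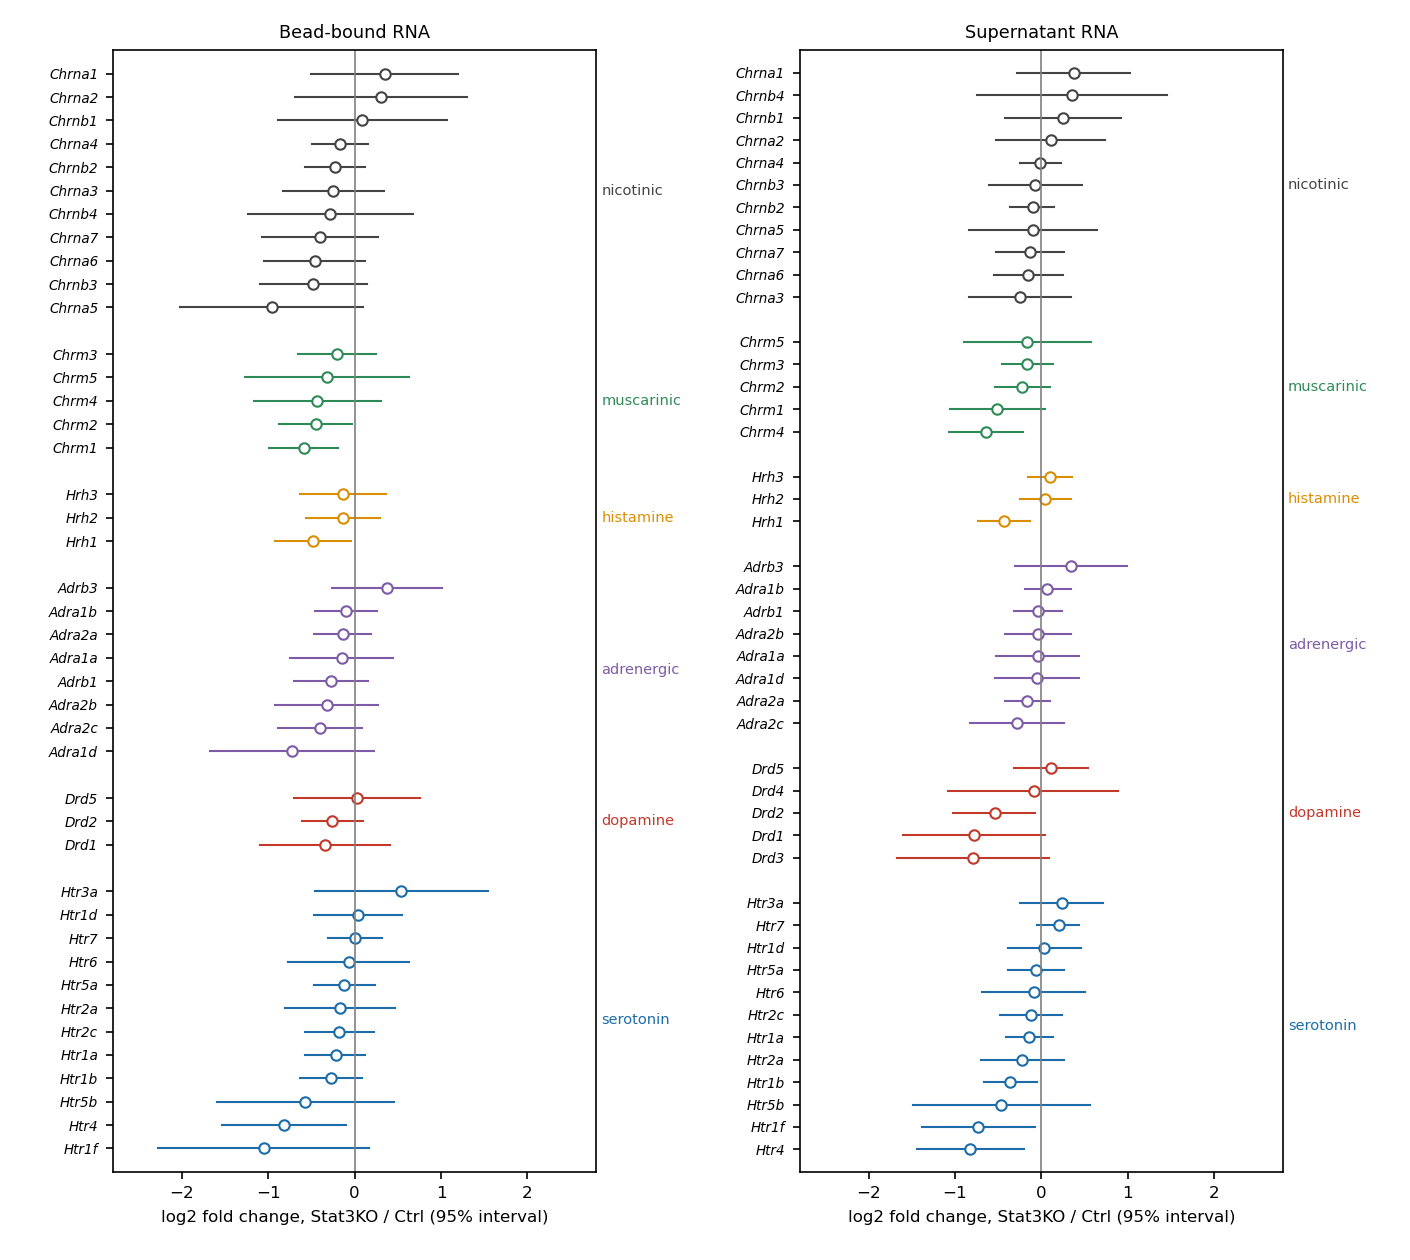
Log2 fold change of Stat3KO over Ctrl for the receptor genes tested in bead-bound RNA (left, 42 genes drawn) and supernatant (right, 44 genes drawn), with 95% intervals from edgeR, sorted within families. All points are open because none passed an adjusted p under 0.05. Most points lie left of 0, among them Chrm1 on the beads at −0.59 with an interval of −0.99 to −0.19.

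Chrm1, the M1 receptor, was lower in all Stat3KO bead-bound libraries, at 15.7, 11.7 and 11.9 CPM against 22.0, 18.7 and 18.3 CPM in Ctrl. The log2 fold change of −0.59 (edgeR, SE 0.180, adjusted p = 0.714) did not pass. In supernatant it stood at 26.2, 11.3 and 12.9 CPM for Stat3KO and 21.4, 25.0 and 25.1 CPM in Ctrl. The Stat3KO supernatants, with pools 2 and 3 low and 1 high, were in the order of the striatal markers given above, and the Ctrl supernatants were not. On the beads the pools of each genotype were in the order of these markers. The part of the markers in the level of Chrm1 was not tested.

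Htr4, a Gs-coupled receptor, stood at 1.69, 2.66 and 2.87 CPM for Stat3KO and 2.76, 3.93 and 5.94 CPM in bead-bound Ctrl RNA, and at 1.96, 2.13 and 1.47 CPM and 1.86, 4.23 and 3.62 CPM in supernatant. The genotypes overlapped in each fraction, and the log2 fold changes were both −0.82 (SE 0.324, adjusted p = 0.999 on the beads, and SE 0.284, adjusted p = 0.652 in supernatant). Hrh1, whose values stand above, had log2 fold changes of −0.48 (SE 0.198, adjusted p = 0.999) and −0.43 (SE 0.137, adjusted p = 0.607), and its genotypes were apart in supernatant alone. Chrm4 stood at 3.19, 2.61 and 2.55 CPM for Stat3KO and 5.15, 4.05 and 3.85 CPM in Ctrl supernatant, without overlap. On the beads it stood at 2.49, 1.71 and 1.43 CPM against 3.47, 2.13 and 2.01 CPM, with overlap. Its supernatant log2 fold change was −0.64 (edgeR, SE 0.195, adjusted p = 0.574). Htr1b stood at 21.6, 16.7 and 15.7 CPM for Stat3KO and 21, 24.9 and 22.7 CPM in Ctrl supernatant, and at 20.2, 18.8 and 19.2 CPM against 19.5, 23.6 and 26.7 CPM on the beads. Pools 2 and 3 lay below the Ctrl values in supernatant and pool 1 among them (log2 fold change −0.36, SE 0.139, adjusted p = 0.758). None of these differences passed the test.

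Since replicate 1 stood apart, the genotypes were also compared with replicates 2 and 3 alone, 2 pools a group. In bead-bound RNA 9 of 44 receptor genes were then lower in Stat3KO (Chrna6, Chrnb3, Chrnb2, Drd1, Drd2, Htr2c, Chrm1, Chrm2 and Chrm3), against 5.10% of all genes, and 1 was higher, against 1.56%. Their log2 fold changes were −0.77 for Chrna6, −0.73 for Chrnb3, −1.02 for Drd1 and −0.47 for Htr2c (adjusted p = 0.000105, 0.00103, 0.000741 and 0.00374). In supernatant 7 of 45 were lower (Htr2c, Adra2c, Drd2, Htr1b, Drd1, Htr4 and Chrm1), against 4.22% of all genes, with the largest change in Drd1 at −1.70 (adjusted p = 0.000819). Leaving out Stat3KO supernatant 1 alone gave 3 lower there, Drd1, Drd2 and Chrm1, at −1.58, −0.91 and −0.99 (adjusted p = 0.0257, 0.0394 and 0.0235), against 0.195% of all genes; without a filter on low counts the same 3 were lower, against 0.479%. In supernatant 2 and 3 the striatal markers stood at 255 and 375 CPM for Stat3KO against 787 and 570 CPM in Ctrl. On the beads 2 and 3 of each genotype stood closer, at 222 and 266 CPM against 376 and 296 CPM. The part of these markers in the differences was not tested.

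Other genes of the same signalling steps were counted over both genotypes. Among all 19122 genes tested, 26.2% rose and 28.7% fell, with a median log2 fold change of −0.0284. Of 24 tested genes that make, carry or break down these transmitters, 8 rose and 5 fell on the beads, with a median log2 fold change of 0.00802. The 5 with the smallest p were Gch1, which makes the cofactor of tyrosine hydroxylase, at 2.92, Ddc, the decarboxylase that makes dopamine, at 2.66, Th, tyrosine hydroxylase, at 2.72, Slc6a3, the dopamine transporter, at 2.95, and Slc18a2, the vesicle monoamine transporter, at 2.16 (adjusted p from 1.96e-09 to 1.17e-06). Ache, acetylcholinesterase, rose by 0.79 (adjusted p = 1.87e-05). Of 26 G protein alpha subunits and effector enzymes 8 rose and 9 fell (median −0.0110), with Gnas (Gs) at 1.04, Gna14 at 1.95, Gnaz at 0.67, Gnai2 at 0.64, Gna12 at −0.86 and the adenylyl cyclase Adcy1 at −1.25.

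Of 13 tested factors that assemble, anchor or modulate nicotinic receptors, 3 rose and 5 fell (median −0.322), against 26.2% and 28.7% of all genes. Those that rose were Ly6h at 1.53 and Ly6e at 1.35, of the Ly6 family, some of whose proteins bind nicotinic receptors, and Tmem35a, the chaperone NACHO, at 0.79 (adjusted p = 4.35e-06, 1.00e-06 and 0.000324). Lrp4, Lypd6 and Musk fell, at −1.09, −0.62 and −1.70 (adjusted p = 3.55e-05, 0.000148 and 0.000595); Lrp4 and Musk are known from the muscle endplate. Of 7 tested receptor kinases and arrestins, which shut off G protein-coupled receptors, 2 rose and 3 fell (median −0.281): Arrb2 at 0.57 and Grk6 at 0.37 (adjusted p = 0.000167 and 0.00164), and Grk5 at −0.47, Arrb1 at −0.28 and Grk3 at −0.35 (adjusted p = 0.00277, 0.00770 and 0.0119). In the comparisons of the genotypes 0 genes of these 4 lists passed in edgeR, in either fraction. Of all genes 0.421% were higher and 0.0288% lower on the beads, and 0% and 0.0108% in supernatant.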

How the data were processed

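RNA of 12 libraries (4 groups of 3, genotype by fraction) was counted per gene. The deposited table holds whole-number counts that the authors did not normalise, per the values; STAR 2.5.3a and mm10 are named in the submitters' processing notes. Per the labels' protocols, a 3 mm block was dissected caudal to the optic chiasm, and polyA libraries, from RNA of integrity 8 or more, were read for 50 cycles, 4 libraries per lane. Counter, annotation and strand setting: not given in the sources used here. Hence genes on opposite strands that overlap, 11 of the 53, cannot be separated. GENCODE M21 on GRCm38 matched 52489 of 52638 entries, 2 entries are the transgenes and 147 stayed unmatched.

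Counts were tested in R 4.3.3 with edgeR 4.0.16, using filterByExpr (minimum count 10, minimum total 15), TMM scaling, a quasi-likelihood F test, 2-sided, Benjamini-Hochberg adjustment over all genes tested, threshold 0.05. The SE is the size of the log2 fold change divided by the square root of F. The 4 comparisons within a genotype or fraction used their 6 libraries, and the average over genotypes and the difference of ratios all 12. The script was tested on simulated counts. Levels are CPM after TMM, and per kb they are divided by the merged exon length. Both fractions of a number share their pool of mice, per the study's design, and deviations of such libraries correlated at 0.350, 0.247 and 0.209 in Stat3KO and 0.367, 0.196 and 0.241 in Ctrl. The labels do not pair the genotypes by number. No date or lane is given per library, and without molecular identifiers on the reads the depth limits only the counting error. Replicates of a group correlated at 0.976 to 0.991 across genes, and no pair agreed within sampling noise.

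The set of receptor genes and the gene lists were chosen with earlier results of these data known. The text gives values in every library for the genes that rose, the 8 largest falls, and the 4 smallest p in each genotype comparison; other genes are given by counts. The values of 1 receptor gene are not reported here; it stays in the counts. Pairs for ratios within a library were chosen after their values were seen. The 4 pathway lists hold 26, 26, 14 and 10 symbols, of which 2 kinase symbols are older names without an entry. The 14 marker lists cover neurons, astrocytes, oligodendrocytes and their precursors, endothelium, microglia, ependyma and tanycytes, mural cells, pituitary, striatum, thalamus, medial habenula, blood and arcuate LepRb neurons. On the beads 4 neuron markers rose and 2 fell of 10, 3 mural rose and 2 fell of 10, 1 ependymal rose and 3 fell of 10, 1 precursor rose and 7 fell of 8, 1 thalamic rose and 6 fell of 8, 1 habenular rose of 6, 2 of 5 tested pituitary fell and all 5 blood markers fell. Other settings were RLE factors, library totals, no filter, DESeq2 1.42.0, limma-voom (limma 3.58.1), replicate or pool blocks, all libraries in 1 fit, replicates 2 and 3 alone, and each library left out.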

Additional observations from a re-analysis of the deposited data

How the results depend on the processing

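Over both genotypes, 18 of the 27 receptor genes called kept their call under all 19 other settings, and no called gene changed direction in any comparison. Those that lost it under at least 1 setting were Chrna4, Chrnb2, Chrna5, Drd1, Htr1d, Htr1a, Htr3a, Adra1a and Adra1b. With the pool as a replicate block, the counts over both genotypes were 13 higher and 18 lower, against the reported 11 and 16, while the shares of all genes moved from 26.2% and 28.7% to 31.5% and 34.0%; the block left Chrm1, Chrna7, Drd5 and Htr5a newly called (adjusted p = 0.0176, 0.0454, 0.0446 and 0.0209). In Ctrl the counts were 11 and 11 in place of 7 and 7, and in Stat3KO 13 were lower in place of 7. Between genotypes the block on the replicate number called 0 receptor genes in either fraction; same-number deviations there correlated at 0.114, −0.0863 and 0.136 on the beads and at 0.141, 0.0375 and 0.0237 in supernatant. The labels tie no number to a batch shared by the genotypes, and whether number 1 marks one was not tested. With replicates 2 and 3 alone, the beads gave 1 higher and 9 lower between genotypes and the supernatant 7 lower, and on the beads against supernatant 12 were higher and 10 lower in Ctrl (26.4% and 26.0% of all genes), and 8 higher and 13 lower in Stat3KO (20.8% and 23.0%). No filter and DESeq2 each called 1 receptor gene higher on the beads of Stat3KO, and no filter called 3 lower in supernatant. Leaving out single libraries gave 6 to 12 higher and 4 to 8 lower in Ctrl. The shares of all genes there were 12.2% to 22.5% and 14.4% to 24.4%. In Stat3KO 3 to 7 were higher and 3 to 12 lower, against 6.49% to 15.6% and 9.07% to 18.6%. Between genotypes 0 to 3 were lower in supernatant, against 0.0105% to 0.195%. Over both genotypes 8 to 12 were higher and 12 to 16 lower, against 23.3% to 26.2% and 25.5% to 28.8%. The cause was not tested. The counts for the ratio difference stayed at 0 throughout. With the length of the longest transcript, 9 of the 10 highest genes per kb stayed among the 10 highest.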
